A study of Homo sapiens with 33 samples.

Results

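Combined treatment of breast cancer cells with SY200 and V50 was followed here from 3 h to 12 h, and the question was how far expression at 12 h had moved on from expression at 3 h. The comparison used the SY200/V50 libraries of 12 h, 1 from MDA-MD-231 and 1 from MDA-MD-468 as the labels spell these lines, against the SY200/V50 libraries of 3 h of the same lines. The libraries of 6 h gave the levels between. These were 6 of the 33 libraries of the series, chosen by their labels and not by any measured value. V50 alone and SY200 alone, also at 3, 6 and 12 h in both lines, and the 4 control libraries (DMSO and parental, labelled 0 h) completed the 22 libraries whose spread was estimated together. Both are established lines of triple-negative breast cancer, and the labels give the genotype of all 22 libraries as WT. The series is about inhibitors of CDK7 and CDK9, alone and together, but no label assigns SY200 or V50 to a kinase or gives a unit for the numbers in their names. Each line had 1 library per treatment and time, so the lines served as the replicates (n = 2 at each time). Separate cultures are not stated, so p-values measure only the spread between these libraries, which here is mainly how differently the lines responded. No DMSO or parental library was labelled 3, 6 or 12 h, so the part of time in culture in the changes below was not tested. DMSO and parental were fitted as 1 control condition. They were not alike: the chi-square per degree of freedom was 44.5 for the MDA-MD-231 pair and 27.5 for the MDA-MD-468 pair.

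CDK7 is the kinase of the general transcription factor TFIIH, marks RNA polymerase II at promoters and activates other cyclin-dependent kinases. CDK9, with a T-type cyclin, forms P-TEFb, which releases paused polymerase into elongation and is held inactive by the 7SK RNA with HEXIM1. When such kinases are blocked, messengers with short lives are known to be lost first, and messengers with long lives to remain. A count library reports shares of the messengers present, so an mRNA that merely persists can take a larger share.

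The libraries were 3' tag libraries of polyadenylated RNA, so reads come from the ends of messengers and do not scale with their length. The 6 SY200/V50 libraries held 18250064 to 19303516 counted reads, so depth was similar at 12 h and 3 h. Levels below are in CPM, the usual share of the library's counts after TMM scaling. The median over the 15 markers of MDA-MD-231 was 390 to 659 CPM in libraries of that line, and 29 to 33.8 CPM for MDA-MD-468. Over the 20 markers of MDA-MD-468 it was 189 to 226 CPM in its own libraries, against 5.24 to 6.51 CPM in the other line, so each library carried the markers of its line. Immune cell markers summed to 5.47 and 8.92 CPM at 12 h and to 3.72 and 13.7 CPM at 3 h, with 6 of the 10 at 0 in both libraries of 12 h. The 13 messengers of the mitochondrial genome took 5.05% of MDA-MD-231 reads and 13.5% of MDA-MD-468 reads at 12 h, against 3.21% and 7.06% at 3 h. The scaling factors by which library composition was corrected (TMM) were 0.675 and 0.836 at 12 h, against 0.912 and 1.06 at 3 h. Both measures moved with time in both lines, and their part in the results below was not tested. Fewer cells and less RNA per cell cannot be told apart in such bulk libraries.

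Between 12 h and 3 h of SY200/V50 a broad change of expression was seen in both lines. Of 18911 genes tested, 1810 were higher at 12 h (9.57% of all genes) and 1651 were lower (8.73%) at a Benjamini-Hochberg adjusted p under 0.05 in edgeR's quasi-likelihood test. Called, rose and fell refer to this threshold throughout. The falls were larger than the rises: 1130 of the lower genes but 643 of the higher genes had moved by over 2-fold. The median log2 change was 0.88 over the higher genes and -1.17 over the lower ones, beside 0.05 over all genes tested. The direction was shared by the 2 lines for 1774 of the higher and 1616 of the lower genes, beside 11884 of all 18911. The call was made over the same 2 lines and itself favours a shared direction. Across the 9268 genes with a mean of at least 10 CPM, the change in MDA-MD-468 correlated with that in MDA-MD-231 with Pearson's r of 0.52 and Spearman's rho of 0.59, given as a description over genes that share 4 libraries. Over these genes the median size of the log2 change was 0.60 for MDA-MD-231 and 0.45 for MDA-MD-468. Leaving out the MDA-MD-231 library of 3 h, the count fell to 1020 genes (488 higher and 532 lower), and without the MDA-MD-468 library of 3 h to 1470 (548 higher and 922 lower).

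These directions are relative to the library as a whole. Scaled to the 13 mitochondrial messengers, the median gene had a log2 change of -1.13, and 156 genes were called higher and 10440 lower. With no composition factor the median was -0.33, with 665 genes called higher and 3759 lower. All 1651 lower genes were also called lower under both of these scalings. Of the 1810 higher genes, 1330 had the opposite sign under mitochondrial scaling. Both scalings moved the median gene downwards, which itself favours the falls, so this does not show the falls to be sturdier than the rises. Higher and lower below therefore mean relative to the median gene under TMM scaling.

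**Figure D1:**
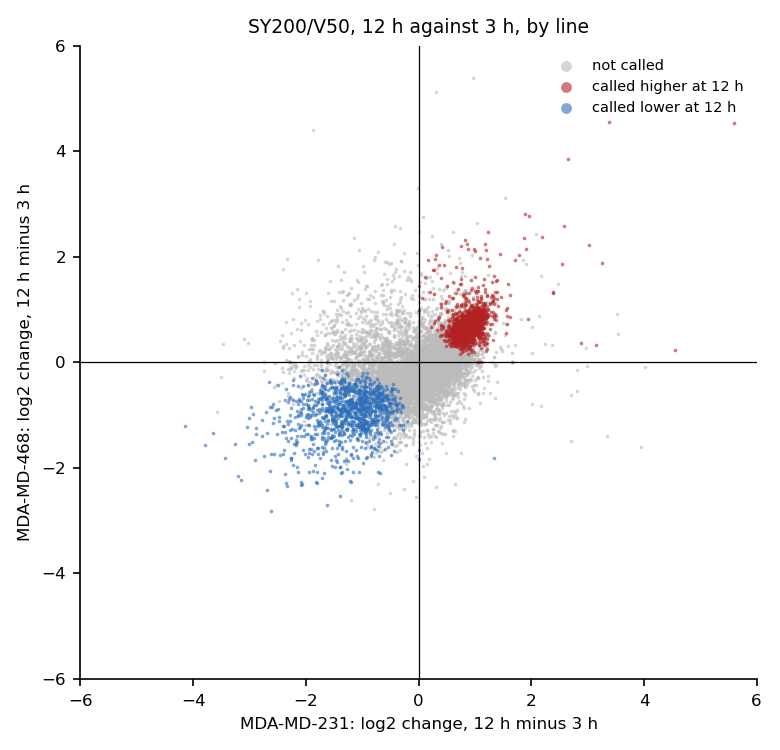
Log2 change from 3 h to 12 h of SY200/V50 in MDA-MD-231 (horizontal axis) and MDA-MD-468 (vertical axis) for the 9268 genes with a mean of at least 10 CPM, under TMM scaling. Points are genes, coloured by whether the fit over both lines called them higher or lower at 12 h; 2462 of the 2472 called genes plotted lie in the quadrants of equal sign, which the call itself favours.

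The 12 genes with the largest falls, among called genes that averaged at least 10 CPM and had 1 direction in the 2 lines, ranged from a log2 change of -2.70 (GTPBP2) to -2.32 (KIF20B). GOLPH3, a phosphoinositide-binding protein of the Golgi (chromosome 5, 32124704 to 32174350, GRCh38), had 7.93 and 20.3 CPM at 12 h, against 71.6 and 95.1 CPM at 3 h, with MDA-MD-231 before MDA-MD-468 in each such pair of values here and below. Its change was -2.64 ± 0.24 (SE, adjusted p = 2.63e-05), and both libraries of 12 h lay far below both of 3 h. TAF6L, a subunit of histone acetyltransferase complexes (chromosome 11, 62771303 to 62787342), had 2.54 and 3.87 CPM at 12 h, against 17 and 21.2 CPM at 3 h (-2.61 ± 0.29, adjusted p = 7.7e-05). GTPBP2, which takes part in the rescue of stalled ribosomes, had 7.24 and 13.8 CPM at 12 h, against 67.6 and 61.9 CPM at 3 h. For these 3 genes the groups did not overlap. Such a remark, here and below, only describes genes that were already called, which the call itself favours. The share of all genes without overlap was not counted. At 3 h none of them was called against control: in the DMSO libraries GOLPH3 had 96.7 and 130 CPM, TAF6L 15.6 and 24.1 CPM and GTPBP2 75.3 and 78.1 CPM.

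The other large falls covered several processes. FZD2, a receptor for Wnt ligands, had 10.3 and 0.59 CPM at 12 h, against 64.1 and 4.79 CPM at 3 h (-2.62 ± 0.46). TNFRSF1A, the main receptor for tumour necrosis factor, had 3.54 and 11.5 CPM at 12 h, against 64.5 and 26.6 CPM at 3 h (-2.51 ± 0.50). Both fell in each line, although the level of FZD2 in MDA-MD-231 at 12 h was above that in MDA-MD-468 at 3 h. GEMIN4, a member of the SMN complex that assembles spliceosomal snRNPs, changed by -2.42 ± 0.41, and GCLC, the catalytic subunit of the first enzyme of glutathione synthesis, by -2.40 ± 0.41. IMP3 (-2.38 ± 0.43) and GRWD1 (-2.34 ± 0.35) act in ribosome assembly. KIF20B, a kinesin of cytokinesis, changed by -2.32 ± 0.29 and TBC1D12, a member of a family of Rab GTPase-activating proteins, by -2.33 ± 0.42. LEO1, a subunit of a complex of elongation, completed the 12. Adjusted p was between 2.63e-05 and 0.00296 for all 12 (edgeR). In a fit without the MDA-MD-231 library of 3 h, TNFRSF1A was no longer called (-1.84), and the other 11 genes kept their call without any 1 of the 6 libraries.

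**Figure D2:**
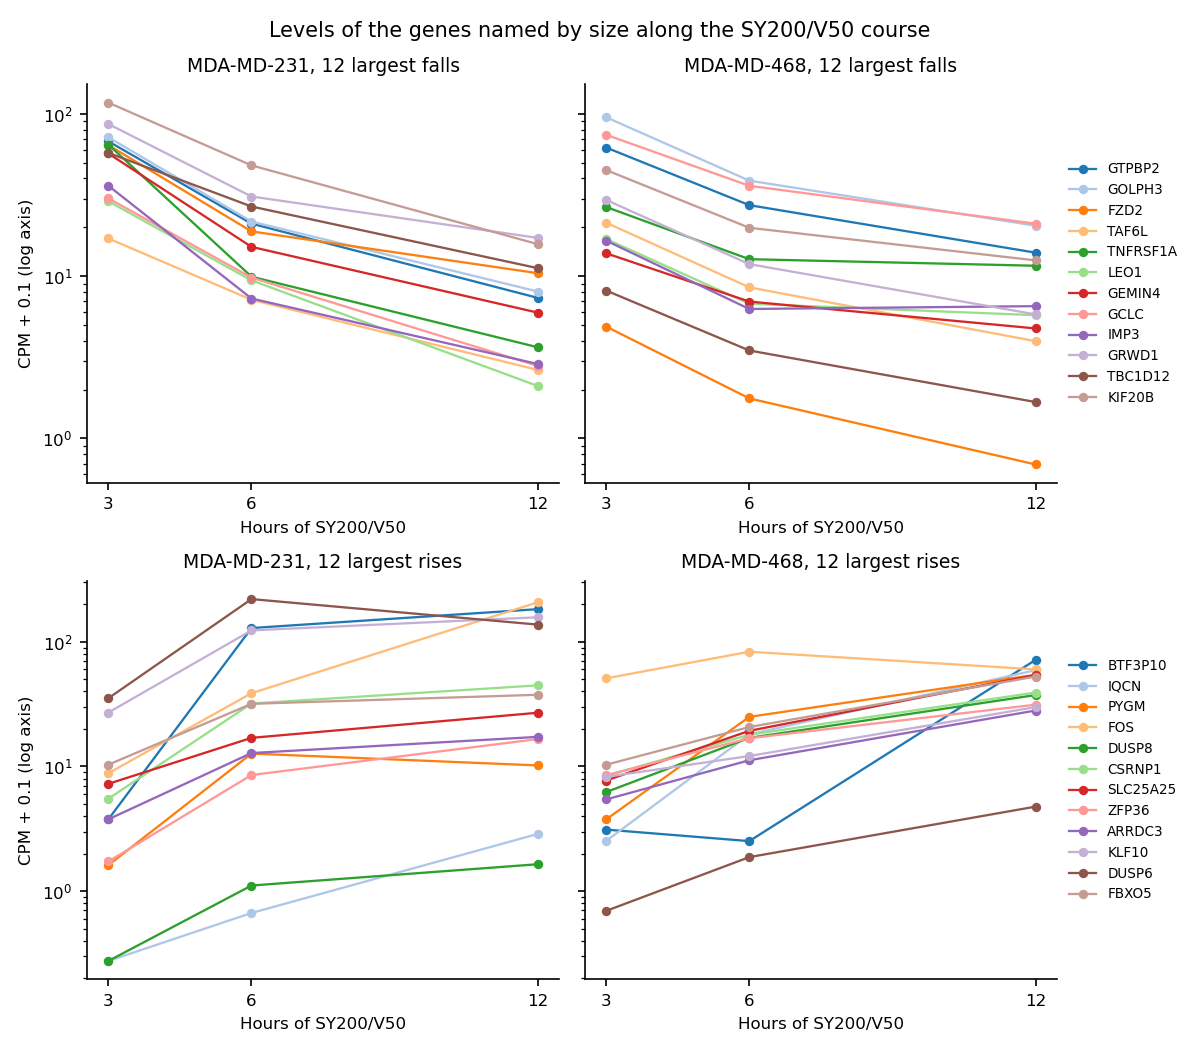
CPM + 0.1 (log axis) at 3, 6 and 12 h of SY200/V50 of the 12 genes with the largest falls (top) and the 12 with the largest rises (bottom) by the rule given in the text, with MDA-MD-231 at the left and MDA-MD-468 at the right. Each line joins the 3 libraries of 1 gene in 1 cell line; for most genes the level at 6 h lies between those of 3 h and 12 h, while DUSP6 in MDA-MD-231 is highest at 6 h (220 CPM).

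Promoters of 2 large falls and of 2 members of the immediate-early genes described below are shown. In the fit over both lines these 2 pairs moved in opposite directions, although FOS and JUNB rose mainly in MDA-MD-231. Sequences are from RefSeq (GRCh38.p14) and run from 250 bases before to 50 bases after the annotated start. Capitals mark matches, on either strand, to the motifs searched: the TATA box (TATAAA), the box known as CCAAT, the GC box (GGGCGG), the E box (CACGTG), the site of AP-1 factors (TGACTCA), the letters of ETS factors (GGAAGT), the cyclic AMP element (TGACGTCA) and the CArG box. The lower genes' promoters come first.
GOLPH3 (chr5:32174270-32174569, minus strand): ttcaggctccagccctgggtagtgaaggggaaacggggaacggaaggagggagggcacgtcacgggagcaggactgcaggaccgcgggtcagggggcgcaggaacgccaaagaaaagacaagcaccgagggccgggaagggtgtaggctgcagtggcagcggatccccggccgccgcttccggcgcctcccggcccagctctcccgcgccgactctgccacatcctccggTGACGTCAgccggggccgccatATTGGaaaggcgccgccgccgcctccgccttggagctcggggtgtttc
TAF6L (chr11:62771146-62771445, plus strand): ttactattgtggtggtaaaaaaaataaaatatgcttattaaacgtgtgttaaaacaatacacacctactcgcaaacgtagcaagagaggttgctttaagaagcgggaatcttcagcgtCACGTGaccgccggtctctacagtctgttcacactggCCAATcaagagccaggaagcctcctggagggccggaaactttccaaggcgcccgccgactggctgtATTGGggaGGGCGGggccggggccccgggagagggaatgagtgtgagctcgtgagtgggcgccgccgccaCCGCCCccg
FOS (chr14:75278578-75278877, plus strand): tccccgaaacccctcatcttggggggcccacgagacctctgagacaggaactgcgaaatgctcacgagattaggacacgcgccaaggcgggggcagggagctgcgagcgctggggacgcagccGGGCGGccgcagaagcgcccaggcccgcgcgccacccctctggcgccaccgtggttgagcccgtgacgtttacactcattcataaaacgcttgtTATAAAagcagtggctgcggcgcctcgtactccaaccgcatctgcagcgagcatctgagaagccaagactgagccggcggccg
JUNB (chr19:12791236-12791535, plus strand): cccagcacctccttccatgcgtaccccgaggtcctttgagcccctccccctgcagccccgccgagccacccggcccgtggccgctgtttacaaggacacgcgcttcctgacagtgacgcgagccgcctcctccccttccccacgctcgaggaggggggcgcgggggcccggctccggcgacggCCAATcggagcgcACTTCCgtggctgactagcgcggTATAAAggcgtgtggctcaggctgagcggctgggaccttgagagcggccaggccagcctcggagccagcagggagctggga
FOS and JUNB each hold a TATAAA, and GOLPH3 and TAF6L hold none in this window. Among the 24 immediate-early genes with a promoter in the table, 7 (29.2%) hold TATAAA, beside 6.14% of all 11164 promoters of tested genes, 4.89% of those of lower genes and 6.34% of those of higher genes. Of these 7, FOS, JUNB and PPP1R15A were called higher, while CCN2, DUSP1, FOSB and SRF were not called. DUSP6, EGR2, IER2, JUN and ZFP36 were called higher and hold no TATAAA in this window. A match describes letters only, and a link of the motif with the rises was not tested.

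Some genes of the transcription machinery itself were among those that moved. Of the 16 transcriptional CDKs and cyclins tested, 3 fell (18.75%, beside 8.73% of all genes) and none rose (beside 9.57%). Of protein-coding genes with a mean of 10 to 30 CPM 18.1% fell, and the part of level was not tested. CDK7 had 4.47 and 7.67 CPM at 12 h, against 35.4 and 22.1 CPM at 3 h, and fell by 2.10 ± 0.35 on the log2 scale (adjusted p = 0.00105). CDK12, which phosphorylates elongating polymerase and supports long genes, had 15.4 and 18.6 CPM at 12 h, against 82.1 and 62.3 CPM at 3 h (-2.02 ± 0.40). CDK8, the Mediator kinase, changed by -1.20 ± 0.28. In all 3 genes both lines had the same sign and the groups did not overlap. CDK9 was not called: it had 18.1 and 25.1 CPM at 12 h, against 45.0 and 18.2 CPM at 3 h, lower in MDA-MD-231 but higher in MDA-MD-468. CCNH and MNAT1, the partners of CDK7, had log2 changes of 0.00 and -0.09 and were not called either. Without the MDA-MD-231 library of 12 h CDK12 (-1.61) and CDK8 (-0.82) were no longer called, CDK8 was also not called without the MDA-MD-468 library of 3 h (-1.13), and of the 16 genes 1 was called lower without the MDA-MD-231 library of 12 h and 2 without the MDA-MD-468 library of 3 h, but 6 without the MDA-MD-468 library of 12 h.

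Among 30 regulators of elongation and P-TEFb, 10 fell (33.3%, beside 8.73% of all genes) and 3 rose (10%, beside 9.57%). The median log2 change was -0.30. LEO1, a subunit of the PAF complex that travels with elongating polymerase, had 2.00 and 5.64 CPM at 12 h, against 28.8 and 16.8 CPM at 3 h (-2.42 ± 0.41). Its partners PAF1 (-1.16), RTF1 (-0.95) and CDC73 (-0.88) were called lower too. HEXIM1, the protein that holds P-TEFb inactive, had 22.8 and 10.1 CPM at 12 h, against 56.0 and 36.5 CPM at 3 h (-1.56 ± 0.26). Its DMSO levels were 169 and 91.5 CPM. With V50 alone HEXIM1 changed by -1.93 over the same hours, and the difference between the 2 changes (0.37) was not called. MEPCE, which caps 7SK, changed by -1.45 ± 0.27, ELL2, of the super elongation complex, by -1.29 ± 0.24, and NELFA, of the pausing complex, by -1.47. Those that rose were SUPT6H (0.61), NELFCD (0.69) and PCF11 (1.72 ± 0.38), a termination factor with 63.8 and 250 CPM at 12 h, against 32.2 and 56.3 CPM at 3 h. PCF11 was not called without the MDA-MD-231 library of 3 h (1.61) or the MDA-MD-468 library of 12 h (0.65). Leaving out the MDA-MD-231 library of 3 h, 5 members were called lower and none higher, and without the MDA-MD-231 library of 12 h 6 were called lower and 2 higher.

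Among 55 genes of TFIIH, TFIID, Mediator and the other initiation factors, 14 fell (25.5%, beside 8.73% of all genes). A further 3 rose (5.45%, beside 9.57%), and the median was -0.35. TAF5 and TAF4, scaffold subunits of TFIID, changed by -1.77 ± 0.35 and -1.47 ± 0.29, and GTF2B, which places polymerase at the start site, by -1.43 ± 0.30. TAF4 had 5.16 and 11.3 CPM at 12 h, against 21 and 23.4 CPM at 3 h, with no overlap. Mediator subunits gave 8 of the 14 falls, between -1.14 (MED31) and -0.98 (MED7), whereas MED26 rose by 1.85 ± 0.37 and had 35.5 and 39.4 CPM at 12 h, against 10.8 and 10.2 CPM at 3 h. The subunits of RNA polymerase II did not share this direction: of 12, 6 rose (50%, beside 9.57% of all genes) and none fell. Their median was 0.59 (-0.58 under mitochondrial scaling), and POLR2A, the catalytic subunit, was at 0.08 and not called. POLR2L rose by 0.95 ± 0.19 and POLR2E by 0.84 ± 0.17 (-0.22 and -0.33 under mitochondrial scaling), and POLR2E was not called without the MDA-MD-468 library of 3 h (0.72). In a fit without the MDA-MD-231 library of 3 h, 6 of the 55 initiation genes were called lower and none higher, TAF5 was not called (-1.52) and 2 of the polymerase subunits were called. Without the MDA-MD-468 library of 3 h 5 of the 55 were called lower, and without the MDA-MD-231 library of 12 h 9 were, with TAF4 not called (-1.08); in both cases 2 of the polymerase subunits were called higher. MED26 was not called without the MDA-MD-231 library of 3 h (1.70) or the MDA-MD-468 library of 12 h (1.39).

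Of 30 genes of G2 and mitosis 14 fell (46.7%, beside 8.73% of all genes), 3 rose (10%, beside 9.57%) and 13 were not called. The median was -0.60. TTK, a kinase of the spindle checkpoint, had 13.4 and 24.1 CPM at 12 h, against 60.4 and 95.7 CPM at 3 h (-2.07 ± 0.23, adjusted p = 7.7e-05). CENPF, a kinetochore protein, had 92.3 and 127 CPM at 12 h, against 416 and 364 CPM at 3 h (-1.81 ± 0.23). NDC80 changed by -1.33 ± 0.22 and CCNB1, which encodes cyclin B1, by -1.13 ± 0.14. Each of these 4 stayed called without any 1 of the 6 libraries, and the groups of TTK and CENPF did not overlap. At 3 h all 4 had been between -0.31 and -0.07 relative to control and were not called. CDK1 (-0.28) was not called, and WEE1 (1.63), its inhibitory kinase, FOXM1 (0.53) and PTTG1 (0.54) were called higher. Without the MDA-MD-231 library of 3 h 5 of the 30 were called lower and none higher, without the MDA-MD-468 library of 3 h 7 and 1, and without the MDA-MD-231 library of 12 h 9 and 1.

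Homologous recombination and Fanconi genes gave 7 falls (21.9%, beside 8.73% of all genes) and 1 rise (3.1%, beside 9.57%) among 32. Their median was -0.46. FANCM had 2.93 and 1.31 CPM at 12 h, against 9.12 and 4.94 CPM at 3 h (-1.80 ± 0.37). BRCA2 had 6.47 and 8.53 CPM at 12 h, against 21 and 21.1 CPM at 3 h (-1.48 ± 0.30). RAD54L changed by -0.96 ± 0.21 and FANCF, at 0.23 and 0.98 CPM at 12 h, by -1.96 ± 0.44. BRCA1 (-0.59) was not called. Leaving out the MDA-MD-231 library of 12 h, FANCM (-1.64) and BRCA2 (-1.22) were not called and 2 of the 32 were lower, and without the MDA-MD-231 library of 3 h RAD54L (-0.90) was not called and 4 were lower. Without the MDA-MD-468 library of 12 h 11 were lower. The 42 DNA replication and E2F genes were split, with 5 higher (11.9%), 6 lower (14.3%) and a median of 0.02. Of all genes 9.57% rose and 8.73% fell, and of protein-coding genes 10.2% and 11.1%. The shares of the list are near these, so single members are only described. RFC1, the large subunit of the clamp loader, changed by -1.47 ± 0.26 and GINS1 by -1.11 ± 0.25, whereas TK1 (0.85 ± 0.20), of nucleotide supply, was higher. Scaled to mitochondrial messengers TK1 was at -0.32 and the median of the list at -1.16. TK1 also lost its call on leaving out either library of 3 h (0.92 and 0.77), and GINS1 without the MDA-MD-231 library of 3 h (-1.07). The median of this list changed sign with other settings and libraries (-0.39 to 0.09 on leaving out 1), and without the MDA-MD-231 library of 3 h none was called higher and 1 lower, without the MDA-MD-468 library of 3 h 0 and 5, and without the MDA-MD-468 library of 12 h 2 and 12.

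Beside the shares that follow, 8.73% of all genes fell and 9.57% rose. Of 35 epigenetic regulators 7 fell (20%) and 2 rose (5.71%). Their median was -0.30, which was -0.0029 without the MDA-MD-231 library of 12 h and -1.22 without that of MDA-MD-468. Among them, ARID1B, of the SWI/SNF remodelling complex, changed by -1.60 ± 0.24, EED by -1.56 ± 0.33 and SUZ12 by -0.90 ± 0.18, both of Polycomb complex PRC2, and HDAC1, a deacetylase, by 0.89 ± 0.13 (-0.28 under mitochondrial scaling). Of 30 genes of mRNA decay 8 fell (26.7%) and 1 rose, with a median of -0.27 (-0.73 without the MDA-MD-468 library of 12 h), and among those that fell were CNOT6L (-1.73 ± 0.42), a deadenylase, CNOT2 (-1.32 ± 0.34), of the same complex, and EXOSC3 (-0.83 ± 0.19), of the exosome. Of 31 splicing genes 5 fell (16.1%) and 4 rose (12.9%), and SRSF6 (-1.47 ± 0.18), SRSF5 (-1.33 ± 0.20) and SRSF3 (-1.18 ± 0.20), all SR proteins, fell in both lines while HNRNPC was at 0.60 ± 0.15 (-0.57 under mitochondrial scaling). SRSF6 had 27.9 and 34.2 CPM at 12 h, against 89.2 and 83.6 CPM at 3 h, with no overlap. In a fit without the MDA-MD-231 library of 3 h, no decay gene was called, without that of 12 h 3 were lower and without the MDA-MD-468 library of 3 h 4 were. In the first of these cases EED (-1.28) and HNRNPC (0.56) were not called either, and without the MDA-MD-231 library of 12 h CNOT6L (-1.18), CNOT2 (-0.82), SUZ12 (-0.75) and HNRNPC (0.45) were not. HNRNPC was also not called without the MDA-MD-468 library of 3 h (0.63). Of the 35 epigenetic regulators 17 were called lower without the MDA-MD-468 library of 12 h, but 2 without the MDA-MD-231 library of 3 h and 4 without that of 12 h. Of the 31 splicing genes 10 were called lower without the MDA-MD-468 library of 12 h, but 3 without either library of 3 h.

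Genes of signalling routes that drive growth moved less uniformly. The shares that fell were 25% of YAP and TEAD genes, 14.3% of WNT and BMP genes and 15.2% of oncogenic genes. Those that rose were 8.33%, 0% and 3.03%. Of all genes 8.73% fell and 9.57% rose, and of protein-coding genes with a mean of 10 to 30 CPM 18.1% fell. The part of level was not tested, so single members are only described. Of 24 YAP and TEAD genes 6 fell and 2 rose: TEAD4, a transcription factor of the route, changed by -1.32 ± 0.29, its regulator AMOTL1 by -1.18 ± 0.27, and the target gene ANKRD1 by -0.83 ± 0.22, with 207 and 3.08 CPM at 12 h, against 390 and 4.99 CPM at 3 h. Of 21 WNT and BMP response genes 3 fell and none rose, and SMAD6, an inhibitor of BMP signalling, had 1.62 and 2.82 CPM at 12 h, against 8.25 and 8.84 CPM at 3 h (-2.04 ± 0.44). DKK1, a secreted Wnt antagonist, was at -1.66 ± 0.55 and NOG, a BMP antagonist, at -3.36 ± 0.90 with 0 CPM in MDA-MD-468 at 12 h. Of 33 oncogenic factors and receptors 5 fell and 1 rose: IGF1R changed by -1.25 ± 0.23, FZD7 by -1.71 ± 0.36, MAX, the partner of MYC, by -0.99 ± 0.19, RUNX2 by -1.13 ± 0.37, and FOXQ1 by -2.13. EGFR (-1.06), MET (-0.63) and NOTCH1 (-0.67) were not called. Without the MDA-MD-231 library of 3 h no gene of the first 2 groups was called, nor was FZD7 (-1.35), and 2 of the 33 oncogenic genes were called lower. TEAD4 (-0.96), AMOTL1 (-0.93), ANKRD1 (-0.69) and NOG (-5.34) were not called without the MDA-MD-231 library of 12 h, nor ANKRD1 without the MDA-MD-468 library of 3 h (-0.85). Leaving out the MDA-MD-231 library of 12 h, 2 YAP and TEAD genes and 1 WNT and BMP gene were called lower, and without the MDA-MD-468 library of 3 h 3 and 2 were. SMAD6 was at -1.58 and not called without the MDA-MD-231 library of 3 h. DKK1 lost its call on leaving out any 1 of the 6 libraries (-1.87 to -1.43) and RUNX2 on leaving out any but the MDA-MD-231 library of 12 h (-1.19 to -0.99).

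Of 495 zinc finger genes tested, 43 fell (8.69%, beside 8.73% of all genes) and 14 rose (2.83%, beside 9.57%), with a median of -0.16. Without the MDA-MD-231 library of 12 h the median was 0.09, with 15 lower and 23 higher, and without that of MDA-MD-468 it was -0.77, with 54 lower and 4 higher. In the difference from the V50 course 167 of the 495 were called lower, beside 8.29% of all genes, and 2 higher, beside 4.62%. ZNF638 had 19.7 and 48.5 CPM at 12 h, against 62.5 and 106 CPM at 3 h (-1.36 ± 0.25), and ZNF488 (-2.35 ± 0.42) and ZNF41 (-1.31 ± 0.24) were lower too. ZNF211 went the other way, with 22.5 and 45.9 CPM at 12 h, against 9.76 and 10.5 CPM at 3 h (1.71 ± 0.26). The group had been low at 3 h already, with a median of -1.03 relative to control, and from 3 h to 12 h of V50 alone its median change was 1.32. Of the 495, 11 were called lower without the MDA-MD-231 library of 3 h and 16 without that of MDA-MD-468.

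The largest rises were of another kind. The 12 genes chosen by the same rule ranged from 2.16 (FBXO5) to 5.08 (BTF3P10). PYGM, the glycogen phosphorylase of muscle, had 10.1 and 54.3 CPM at 12 h, against 1.51 and 3.65 CPM at 3 h (3.52 ± 0.67), and 0.24 and 0.37 CPM in the DMSO libraries, so it stood above control at 3 h already. FOS, the immediate-early transcription factor, had 208 and 60.0 CPM at 12 h, against 8.71 and 50.8 CPM at 3 h (2.92 ± 0.82, adjusted p = 0.0213), so its rise was seen in MDA-MD-231 but hardly in MDA-MD-468. SLC25A25, a mitochondrial carrier, had 26.9 and 54.1 CPM at 12 h, against 7.15 and 7.60 CPM at 3 h (2.52 ± 0.50). CSRNP1 (2.53 ± 0.60), ARRDC3 (2.33 ± 0.47) and FBXO5, an inhibitor of the anaphase-promoting complex (2.16 ± 0.35), had all been called lower than control at 3 h, by 1.83, 2.38 and 1.88 on the log2 scale. IQCN (4.31 ± 1.09) and DUSP8 (2.66 ± 0.33), a phosphatase of MAP kinases, had most of their reads in MDA-MD-468, at 59.2 and 37.3 CPM at 12 h against 2.42 and 6.12 CPM at 3 h. BTF3P10 is listed as a pseudogene of BTF3, so reads may be shared with its parent and its value (5.08 ± 1.44) is uncertain.

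All 12 of these rises kept a positive sign under mitochondrial scaling, where FOS (1.81) and KLF10 (1.11) were not called. PYGM (2.07), IQCN (3.35), SLC25A25 (1.38), CSRNP1 (2.01), ARRDC3 (1.71) and BTF3P10 (3.03) were not called without the MDA-MD-468 library of 12 h. In a fit without the MDA-MD-231 library of 3 h, FOS (2.30), KLF10 (2.32), ARRDC3 (2.05), ZFP36 (2.07), SLC25A25 (2.26), CSRNP1 (1.93), IQCN (4.23) and BTF3P10 (3.73) were not. FOS was at 0.63 without the MDA-MD-231 library of 12 h. FOS (3.74), KLF10 (2.20) and IQCN (4.58) also lost their call without the MDA-MD-468 library of 3 h, and KLF10 (1.79) without the MDA-MD-231 library of 12 h. FBXO5, DUSP6 and DUSP8 stayed called without any 1 library.

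Immediate-early genes are ones that cells switch on within minutes of a stimulus, and their messengers decay fast. Of 33 tested, 11 rose (33.3%, beside 9.57% of all genes), none fell and 22 were not called. The median was 1.51, with changes between -2.16 and 3.97. Under mitochondrial scaling the median was 0.31, with 2 called higher and 7 lower, and without the MDA-MD-231 library of 12 h it was 0.72. Relative to control their median was -1.26 at 12 h and -1.83 at 3 h, so the list as a whole was below control at both times. IER2 had 237 and 247 CPM at 12 h, against 45.3 and 99.4 CPM at 3 h (1.88 ± 0.32), and 148 and 266 CPM in the DMSO libraries. DUSP6, a phosphatase of ERK, had 137 and 4.66 CPM at 12 h, against 35.1 and 0.59 CPM at 3 h (2.26 ± 0.43), and 378 and 11.9 CPM in the DMSO libraries. ZFP36, which binds AU-rich elements and speeds mRNA decay, had 16.5 and 31.2 CPM at 12 h, against 1.63 and 8.39 CPM at 3 h (2.48 ± 0.51). JUNB (2.12) and EGR2 (2.95) were called as well, with changes by line of 3.16 and 0.32 for JUNB, and of 2.80 and 1.51 for EGR2. EGR1 (2.38), ATF3 (2.30) and DUSP1 (1.65) were not called. The list's median change over the same hours was 1.37 with V50 alone. Without the MDA-MD-231 library of 3 h 2 of the 33 were called, and without that of 12 h or the MDA-MD-468 library of 3 h 4 were. Without the MDA-MD-468 library of 12 h 11 were called higher and 2 lower.

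MYC, itself on that list, had 92.2 and 10.0 CPM at 12 h, against 12.4 and 7.80 CPM at 3 h, and 153 and 52.8 CPM in the DMSO libraries. Its change was 1.88 ± 0.63 (adjusted p = 0.0473), seen mainly in MDA-MD-231, where the level at 6 h was already 91.8 CPM. The call was lost without either library of 3 h (1.48 and 2.28) and without the MDA-MD-231 library of 12 h (0.63). MCL1, an anti-apoptotic protein with a short-lived messenger, had 22.3 and 154 CPM at 12 h, against 59.5 and 123 CPM at 3 h, and 490 and 433 CPM in the DMSO libraries. It was not called between 12 h and 3 h (-0.19 ± 0.53), and its sign was opposite in the lines. Of the 9 anti-apoptotic genes BCL2 (-0.97 ± 0.27) fell and BIRC5, which encodes survivin, rose (0.62 ± 0.14, but -0.55 under mitochondrial scaling). That is 11.1% in each direction, beside 8.73% lower and 9.57% higher of all genes. Of 21 pro-apoptotic genes 3 fell (14.3%), among them BAK1 (-1.04 ± 0.27) and FAS (-1.24 ± 0.42), and CYCS rose (0.78 ± 0.16, but -0.39 under mitochondrial scaling). Of 25 p53 target genes 4 fell (16%), among them MDM2 (-1.28 ± 0.21), XPC (-1.16 ± 0.28) and SESN1 (-1.39 ± 0.44), and GADD45A rose (0.91 ± 0.25, but -0.28 under mitochondrial scaling). MDM2 kept its call without any 1 library. The others named here did not: without the MDA-MD-231 library of 3 h BCL2 (-0.76), BIRC5 (0.59), BAK1 (-0.90), CYCS (0.65) and XPC (-0.98) were not called, and without that of 12 h BCL2 (-0.64), BIRC5 (0.49), BAK1 (-0.76) and XPC (-0.87) were not. SESN1 (-1.80 to -1.21) was lost on leaving out any 1 library of 3 h or 12 h, FAS (-1.70 to -0.94) on leaving out any 1 of the 6 libraries, and GADD45A without either library of 3 h (0.99 and 0.81) or the MDA-MD-468 library of 12 h (0.62).

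Messengers of abundant housekeeping proteins took a larger share at 12 h. Of the mitochondrial, ribosomal protein and oxidative phosphorylation groups below, 100%, 76.9% and 77.4% rose, beside 9.57% of all genes. Of protein-coding genes with a mean over 100 CPM 31.5% rose. All 13 mitochondrial messengers rose, with a median of 1.13, which scaling to their own sum removes by construction (-0.05). MT-ND4, a subunit of complex I, had 11007 and 27256 CPM at 12 h, against 4866 and 10444 CPM at 3 h (1.28 ± 0.15, adjusted p = 0.000132). Of 78 cytosolic ribosomal protein genes 60 rose and none fell, with a median of 0.71 (-0.47 under mitochondrial scaling). RPS12 had 1019 and 1331 CPM at 12 h, against 437 and 736 CPM at 3 h (1.04 ± 0.15), and RPS20 had 1080 and 643 CPM at 12 h, against 523 and 348 CPM at 3 h (0.97 ± 0.14). Of 53 nuclear genes of oxidative phosphorylation 41 rose and none fell, with a median of 0.79 (-0.38 under mitochondrial scaling), and COX6A1 had 136 and 59.8 CPM at 12 h, against 55.7 and 25.3 CPM at 3 h (1.26 ± 0.19). COX7C (1.05 ± 0.15) and NDUFA4 (1.02 ± 0.14) followed. With V50 alone the median of all 3 groups over the same hours lay between -0.02 and 0.16. Leaving out the MDA-MD-231 library of 3 h, 11, 19 and 19 members of these groups were called higher, without the MDA-MD-468 library of 3 h 12, 24 and 22, without the MDA-MD-231 library of 12 h 13, 26 and 26, and without the MDA-MD-468 library of 12 h 10, 39 and 32.

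Of all genes 9.57% rose and 8.73% fell. The shares below that rose were 53.8% of lysosomal, 33.3% of hypoxia and glycolysis, 25.8% of proteasome and 36.8% of snoRNA host genes. Of protein-coding genes with a mean over 100 CPM 31.5% rose, so the glycolysis and proteasome shares are near or below that of abundant genes. The part of level was not tested. Lysosomal genes rose in 14 of 26 with none falling (median 0.73, but -0.44 under mitochondrial scaling). PSAP, the precursor of the saposins, had 2637 and 1490 CPM at 12 h, against 1278 and 773 CPM at 3 h (1.0 ± 0.12, adjusted p = 0.000183). LAMP1 (0.94 ± 0.12), NPC2 (1.01 ± 0.17) and CTSB (0.89 ± 0.15) rose with it, and all 4 stayed called without any 1 library. Of 30 hypoxia and glycolysis genes 10 rose and 2 fell (median 0.50, but -0.67 under mitochondrial scaling). GAPDH had 12808 and 6973 CPM at 12 h, against 6150 and 4265 CPM at 3 h (0.89 ± 0.12). PGK1 (0.85 ± 0.14) and PKM (0.84 ± 0.15) rose, and HK2, the inducible hexokinase, fell (-1.10 ± 0.22). HK2 was not called without the MDA-MD-231 library of 3 h (-0.96). Of 31 proteasome genes 8 rose and 1 fell (median 0.37, but -0.80 under mitochondrial scaling and -0.02 with no composition factor): PSMD2 was at 0.71 ± 0.16 (-0.47 under mitochondrial scaling, and not called without the MDA-MD-468 library of 3 h, 0.65) and PSMC6, an ATPase of the base, at -0.91 ± 0.16. Of 19 hosts of small nucleolar RNAs 7 rose and none fell (median 0.61, but -0.58 under mitochondrial scaling), among them SNHG29 (0.84 ± 0.17, but -0.34 under mitochondrial scaling), which was not called without the MDA-MD-231 library of 3 h (0.81). In a fit without the MDA-MD-231 library of 3 h, 4 glycolysis genes, 1 proteasome gene and no host were called higher, and without the MDA-MD-468 library of 3 h 4, 0 and 3 were, while without the MDA-MD-231 library of 12 h 6, 1 and 5 were.

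Of 39 replication-dependent histone genes 7 rose (17.9%, beside 9.57% of all genes) and none fell (median 1.01, but -0.17 under mitochondrial scaling). Over the same hours the median was 0.97 with SY200 alone, near that with SY200/V50, and 0.34 with V50 alone. These messengers normally lack a poly(A) tail, so the libraries see only their polyadenylated forms. H1-2 had 189 and 21.8 CPM at 12 h, against 88.2 and 9.03 CPM at 3 h (1.18 ± 0.23), and H2BC12 had 392 and 64.5 CPM at 12 h, against 195 and 32.2 CPM at 3 h (1.01 ± 0.20). Histone genes are close copies of each other, so reads may be shared between them. Without the MDA-MD-231 library of 3 h 3 were called, and without the MDA-MD-468 library of 3 h or the MDA-MD-231 library of 12 h 4 were.

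**Figure D3:**
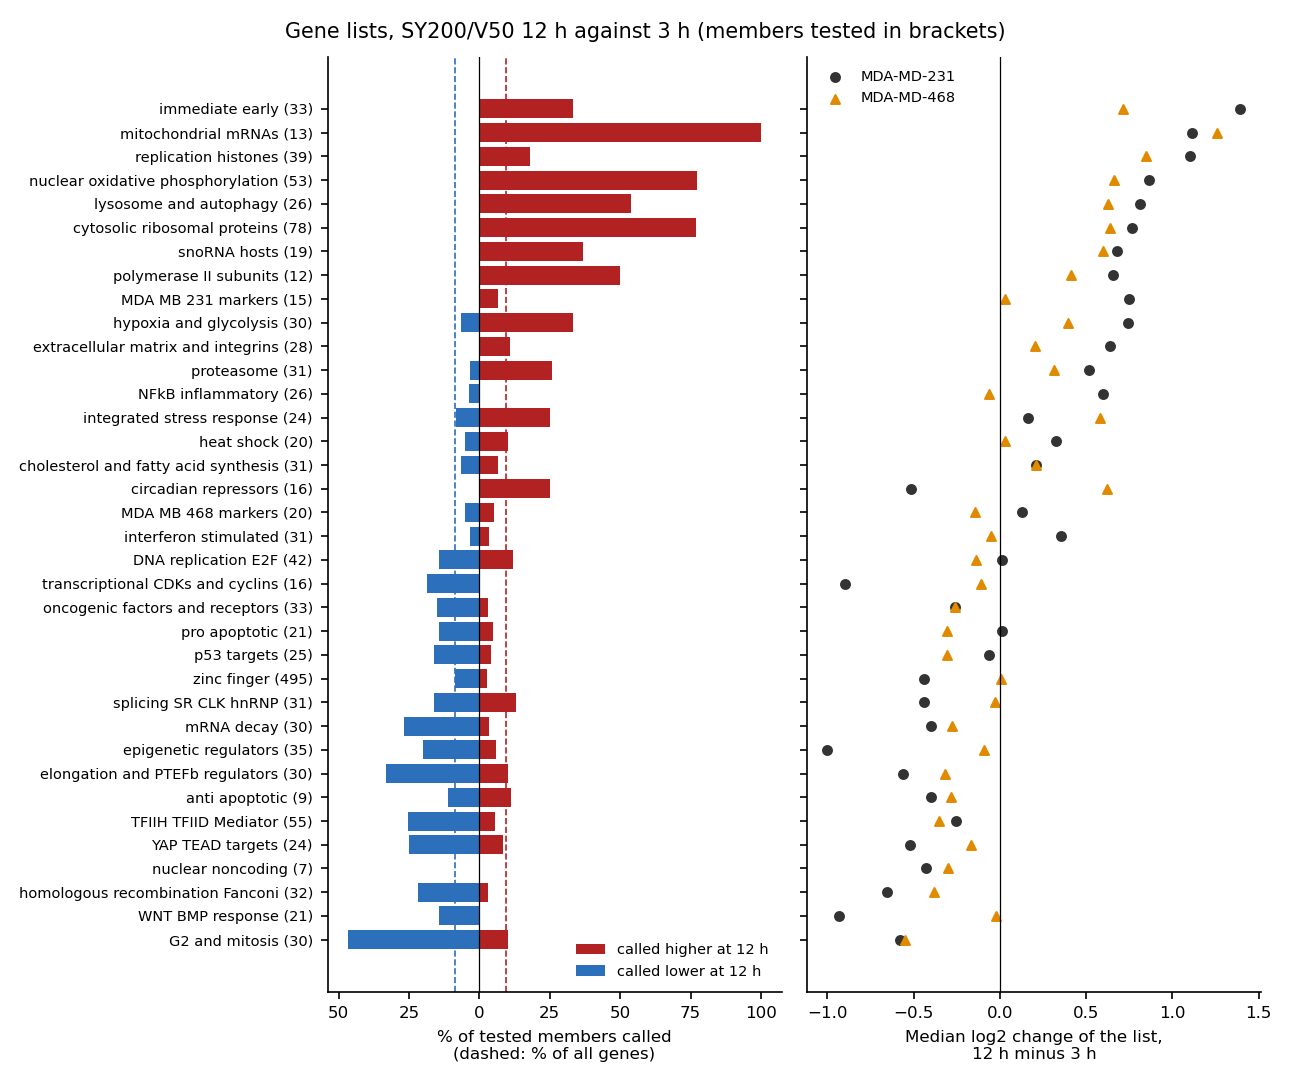
Gene lists in the comparison of 12 h with 3 h of SY200/V50, with the number of members tested in brackets. Left, the share of members called higher (red, to the right) or lower (blue, to the left), with dashed lines at the shares of all genes (9.57% and 8.73%); right, the median log2 change in MDA-MD-231 (circles) and MDA-MD-468 (triangles) under TMM scaling; under mitochondrial scaling all lists with a positive median but the immediate-early genes turn negative.

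Of 24 integrated stress response genes 6 rose (25%, beside 9.57% of all genes) and 2 fell (median 0.32, but -0.90 under mitochondrial scaling and -0.07 with no composition factor). SLC3A2, a subunit of amino acid transporters, had 677 and 382 CPM at 12 h, against 349 and 144 CPM at 3 h (1.15 ± 0.25, but -0.02 under mitochondrial scaling), and GADD45B was at 1.42 ± 0.28. Of 16 circadian repressors 4 rose, also 25%, and none fell (median 0.24, but -1.0 under mitochondrial scaling and -0.11 with no composition factor): NR1D1 (1.58 ± 0.42), PER1 (1.64 ± 0.53), CIART (2.15 ± 0.54) and BHLHE40 (1.29 ± 0.36). The circadian median was opposite in the lines, at -0.52 and 0.62. Over the same hours it was 1.08 with V50 alone and 0.64 with SY200 alone. The stress response median was 0.75 with V50 alone and 0.23 with SY200 alone. NR1D1 had 4.16 and 16.7 CPM at 12 h, against 2.85 and 3.75 CPM at 3 h. No circadian gene was called higher without the MDA-MD-468 library of 3 h or of 12 h, where the medians were -0.02 and -0.69, and 1 was without the MDA-MD-231 library of 3 h. Without the same libraries the stress response median was 0.14 and 0.12. Of the stress response genes 1 was called higher without the MDA-MD-468 library of 3 h and 3 without that of MDA-MD-231, and GADD45B lost its call without either MDA-MD-231 library (1.23 and 0.93), and SLC3A2 without the MDA-MD-468 library of 3 h (0.84).

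In the next lists the shares called were near or below those of all genes (9.57% higher and 8.73% lower), so single members are only described. Matrix and integrin genes had 10.7% higher, and heat shock genes 10% higher and 5% lower. Sterol and fatty acid synthesis had 6.45% each way, interferon-stimulated genes 3.23% each way and NF-kB genes 3.85% lower. Of 28 matrix and integrin genes 3 rose, ITGB1 (0.87 ± 0.17), TIMP1 (1.0 ± 0.17) and ITGB5 (0.69 ± 0.22). Scaled to mitochondrial messengers these were at -0.30, -0.17 and -0.47. Of 20 heat shock genes HSPA8, the constitutive chaperone, fell by 1.63 ± 0.38 with 1007 and 298 CPM at 12 h, against 2655 and 1185 CPM at 3 h. HSP90AA1 (0.53 ± 0.17) and HSP90B1 (0.82 ± 0.14) were higher, but at -0.64 and -0.36 under mitochondrial scaling. Of 31 genes of sterol and fatty acid synthesis SQLE (-1.61 ± 0.34) and HMGCS1 (-0.93 ± 0.26) fell, and FDPS (0.63 ± 0.20) and SREBF2 (0.80 ± 0.21) rose (-0.54 and -0.37 under mitochondrial scaling). NFKBIE, an inhibitor of NF-kB, was the 1 call among 26 NF-kB genes (-1.56 ± 0.28). IFIT5 (-1.95 ± 0.48) and IFITM3 (1.0 ± 0.23, but -0.17 under mitochondrial scaling) were the calls among 31 interferon-stimulated genes. Leaving out the MDA-MD-231 library of 3 h, HSPA8 (-1.45), SQLE (-1.24), HMGCS1 (-0.87), IFIT5 (-1.40), HSP90AA1 (0.55), FDPS (0.74), SREBF2 (0.95), ITGB1 (0.81) and ITGB5 (0.79) were not called. HSP90AA1, HMGCS1, FDPS, SREBF2 and ITGB5 were also not called without the MDA-MD-468 library of 3 h or the MDA-MD-231 library of 12 h, HMGCS1 also without the MDA-MD-468 library of 12 h (-0.95), and IFITM3 not without the MDA-MD-468 library of 3 h (0.88). None of the 7 nuclear noncoding RNAs tested was called, at a median of -0.45.

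The libraries of 6 h lay on the way. Over the 1651 lower genes the median step was -0.70 from 3 h to 6 h and -0.58 from 6 h to 12 h in MDA-MD-231, with -0.60 and -0.42 in MDA-MD-468. Over the 1810 higher genes the steps were 0.42 and 0.49 in MDA-MD-231, with 0.36 and 0.41 in MDA-MD-468. The level at 6 h lay between those of 3 h and 12 h in both lines for 81.6% of the lower and 82.9% of the higher genes, beside 39.1% of all genes, given as a description since the call used the outer libraries. Each step alone gave few calls. From 3 h to 6 h 6 genes were called (0.0317% of those tested), with 2297 at an unadjusted p under 0.05 and 358 called by DESeq2. They were GOLPH3 (-1.51 ± 0.23), RPUSD4 (-1.42 ± 0.21), KDM2B, a histone demethylase (-1.28 ± 0.21), PDS5B, a regulator of cohesin (-1.12 ± 0.18), GPBAR1, a bile acid receptor (3.68 ± 0.59), and a clone-named transcript with reads in MDA-MD-231 only, all but GOLPH3 named after their values were seen. None of the 6 was called without the MDA-MD-231 library of 3 h or of 6 h, while 149 genes were without the MDA-MD-231 library of 12 h and 141 without the MDA-MD-468 library of 12 h; without the MDA-MD-468 library of 3 h 1 gene was, and without that of 6 h 2 were. From 6 h to 12 h no gene was called by edgeR (0% of those tested), with 1694 at an unadjusted p under 0.05 and 396 called by DESeq2, and without the MDA-MD-468 library of 12 h 7 were.

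The course with V50 alone differed from that with SY200/V50. The difference between the 2 changes from 3 h to 12 h was called for 2441 genes, 873 with a higher change in the combination (4.62% of all genes) and 1568 with a lower one (8.29%). Of the 1568, 1372 had a negative change with SY200/V50 and a positive one with V50, at medians over the 1568 of -0.95 and 0.90. Of the 873, 642 had a positive change with SY200/V50 and a negative one with V50, at medians over the 873 of 0.79 and -0.19. GEMIN4 showed the largest difference downwards among called genes with a mean of at least 10 CPM (-4.03 ± 0.56, adjusted p = 0.00105). It had 5.85 and 4.66 CPM at 12 h of SY200/V50, against 56.9 and 13.7 CPM at 3 h, whereas with V50 it had 217 and 41.0 CPM at 12 h, against 64.3 and 15.8 CPM at 3 h. HSPA1B, an inducible chaperone, had 9.32 and 19.3 CPM at 12 h of SY200/V50, against 26.3 and 13 CPM at 3 h, and with V50 220 and 173 CPM at 12 h, against 24.5 and 21.9 CPM at 3 h (difference -3.48 ± 0.63). CCNF, which encodes cyclin F, had 5.39 and 18.4 CPM at 12 h of SY200/V50, against 15.1 and 17.5 CPM at 3 h, and with V50 138 and 97.3 CPM at 12 h, against 17.5 and 20.2 CPM at 3 h (difference -3.18 ± 0.60). For HSPA1B and CCNF the levels at 12 h of V50 were above both DMSO levels and those of SY200/V50 below (DMSO 93.3 and 106 CPM for HSPA1B, 85.8 and 81.9 CPM for CCNF). The count was 604 without the MDA-MD-231 library of 3 h, 525 without that of 12 h, 1131 without the MDA-MD-468 library of 3 h and 3816 without that of 12 h, and scaling to mitochondrial messengers gave 12 higher and 4910 lower. With DESeq2's size factors the split was 1361 higher and 1515 lower.

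Genes already low at 3 h of V50 were a starting group that shares no library with the comparison of 12 h with 3 h of SY200/V50. Against control 616 genes were called lower at 3 h of V50 (3.26% of all genes) and 160 higher (0.846%). Over the 616 the median change from 3 h to 12 h was -0.51 with SY200/V50, at -0.92 for MDA-MD-231 and -0.17 for MDA-MD-468, whereas with V50 it was 1.66. With SY200/V50 132 of the 616 were called lower (21.4%) and 35 higher (5.68%). Of the 160 genes higher at 3 h of V50, 87 were called higher between 12 h and 3 h of SY200/V50 (54.4%) and none lower, at medians of 0.85 with SY200/V50 and -0.01 with V50. V50 libraries of 3 h enter both the choice of these genes and the V50 change, so that change is a description. At 3 h of SY200/V50 itself 355 genes were called higher than control (1.88%) and 1071 lower (5.66%). Of the 1651 genes that fell by 12 h, 220 had been lower than control at 3 h, 2 higher and 1429 not called. Of the 1810 that rose, 195 had been higher, 57 lower and 1558 not called, and these counts share the libraries of 3 h.

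**Figure D4:**
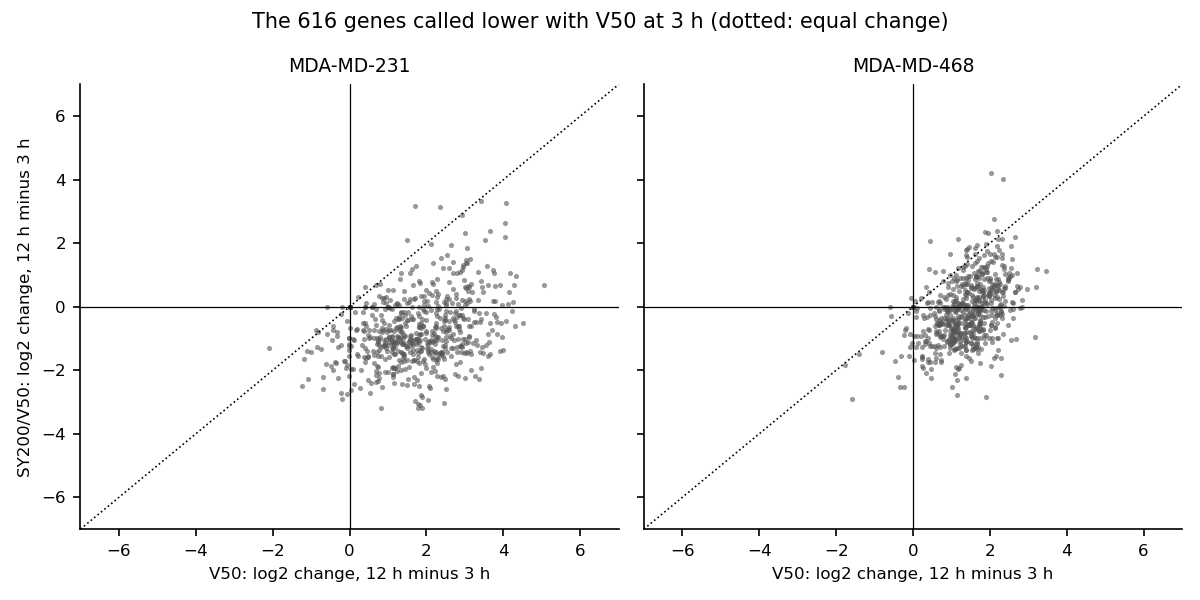
Log2 change from 3 h to 12 h with SY200/V50 (vertical axis) against that with V50 (horizontal axis) in MDA-MD-231 (left) and MDA-MD-468 (right) for the 616 genes called lower than control at 3 h of V50; each point is a gene and the dotted line marks equal change. Most points lie right of 0 and below the dotted line, at medians of -0.51 with SY200/V50 and 1.66 with V50 over both lines under TMM scaling.

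Set against SY200 alone, the change with SY200/V50 was higher for 1247 genes (6.59% of all genes) and lower for 1544 (8.16%). Of the 1544, 1445 had a negative change with SY200/V50 and a positive one with SY200, at medians over the 1544 of -1.10 and 0.63, and of the 1247, 1067 had the opposite pattern. MGAT2, a Golgi enzyme of N-glycan synthesis, had 17.1 and 1.64 CPM at 12 h of SY200/V50, against 72.4 and 8.54 CPM at 3 h, whereas with SY200 it had 148 and 27.1 CPM at 12 h, against 72.0 and 12.7 CPM at 3 h (difference -3.20 ± 0.42). CSTF2T, of the cleavage stimulation factor, had 4.39 and 3.21 CPM at 12 h of SY200/V50, against 27.4 and 10.9 CPM at 3 h, and with SY200 61.8 and 26.9 CPM at 12 h, against 27.8 and 16 CPM at 3 h (difference -3.16 ± 0.34). In both genes the combination and the single agent moved in opposite directions in each line. PCF11 differed upwards (2.62 ± 0.52), with 54.6 and 59.1 CPM at 12 h of SY200, against 98.6 and 115 CPM at 3 h. Its level at 12 h of SY200/V50 is given above. The count of 2791 was 733 without the MDA-MD-231 library of 3 h, 1248 without that of 12 h and 1262 without the MDA-MD-468 library of 3 h, and 36 higher and 7455 lower under mitochondrial scaling.

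A difference between the lines in the change from 3 h to 12 h was called by edgeR for no gene (0% of those tested), where each SY200/V50 library is fitted alone and is assumed to vary like the other libraries. The smallest adjusted p was 0.161, 1638 genes had an unadjusted p under 0.05, and DESeq2 called 222 genes, 178 with a higher change in MDA-MD-468 and 44 with a lower one. The genes chosen with earlier results known show how far single genes could part: the change of MYC was 0.36 in MDA-MD-468 and 2.89 in MDA-MD-231, that of MCL1 0.32 and -1.41, and that of CDK9 0.47 and -1.31. That edgeR called none does not show that the lines changed alike.

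Genes that fell and genes that rose are described next by their structure, with no test. Over the 13932 protein-coding genes of the nuclear genome matched to GENCODE annotation, the lower genes had a median span of 43.9 kb and a median of 10 exons in the longest coding transcript, the higher genes 17.3 kb and 7 exons, and all genes 33.1 kb and 9 exons. The 3' UTR had a median of 1639 bases in lower genes, 726 in higher genes and 1279 in all, and held the AU-rich letters TATTTAT in 41.1%, 21.1% and 34.7%. Of genes over 150 kb 14.3% fell and 3.89% rose, whereas of genes of at most 5 kb 9.99% fell and 18.2% rose. Genes with 1 exon in the longest coding transcript had a median span of 2.76 kb. Some of them span more than that transcript, such as PIGC (73898 bases) and GEMIN4 (9586 bases, for a transcript of 4729). Genes of this class had many falls: of 370, 74 fell (20%) and 25 rose (6.76%), beside 11.1% and 10.2% of all matched genes. Among the 103 of them with a mean of at least 10 CPM, 32 fell (31.1%) and 13 rose (12.6%). In the other exon classes at that level between 8.54% and 17.2% of genes fell and between 4.74% and 24.4% rose. FZD2, GEMIN4, CSTF2T, MGAT2 and HEXIM1 are such genes, as are PRMT6, an arginine methyltransferase (-2.26 ± 0.25), and RNF26 (-1.84 ± 0.16), which were named after their values were seen. The level moved with these classes too: of genes with a mean over 100 CPM 31.5% rose and 4.25% fell, and of those of 10 to 30 CPM 3.61% rose and 18.1% fell, and the part of level in the pattern was not tested.

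**Figure D5:**
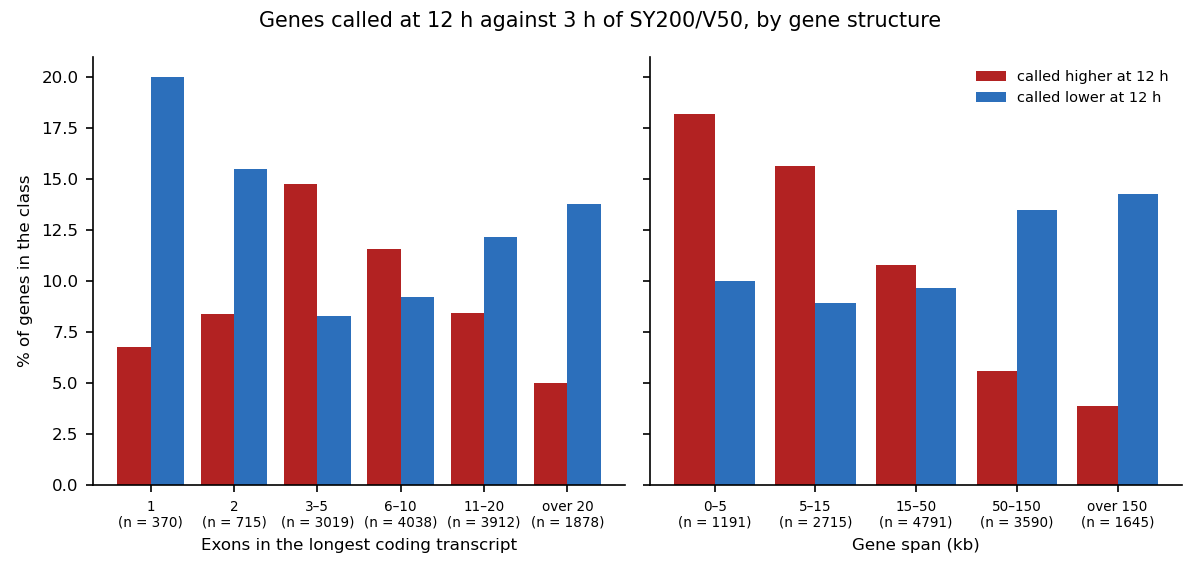
Share of matched protein-coding genes called higher (red) and lower (blue) at 12 h against 3 h of SY200/V50 under TMM scaling, by the number of exons in the longest coding transcript (left) and by gene span (right), with the number of genes in each class under the bars. Genes of 1 exon had the highest share of falls among the exon classes (20%), and the share of rises was 18.2% in genes of at most 5 kb and 3.89% in genes over 150 kb.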

How the data were processed

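Per the labels' protocols, polyadenylated RNA was sequenced with a QuantSeq 3' FWD kit. The authors deposited 1 table of read counts per gene, not normalized. The submitters' processing notes name STAR 2.7.10a, FastQC and GRCh38. For the tool that counted reads, its annotation, strand setting and UMIs: not given in the sources used here. The value columns of 11 knockout libraries of the series were not used.

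From these counts, edgeR 4.0.16 (R 4.3.3, limma 3.58.1) fitted 22 libraries with a term for cell line and 10 conditions (11 residual degrees of freedom), after TMM scaling and a filter on low counts (minimum count 10, minimum total 15), which kept 18911 of 59428 entries. Tests were 2-sided quasi-likelihood tests, Benjamini-Hochberg adjusted over all genes kept, at a threshold of 0.05. Libraries were paired through the shared cell line. Changes in 1 line are differences of log2 CPM with a prior count of 2. The 22 libraries held 17057900 to 22859800 counts, and the part of depth in the precision was not tested. DESeq2 1.42.0, other scalings, no filter, no cell line term, the 6 SY200/V50 libraries alone and leaving out each of these were alternatives. The steps were tested on artificial counts with known changes. The GENCODE match covered 16873 of the tested genes (89.2%).

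Genes were named by rule: up to 12 rises and 12 falls by size among called genes of at least 10 CPM on average with 1 sign in both lines, up to 4 called members of each list by adjusted p, up to 6 in each direction for each difference between treatments with the same 10 CPM limit, and CDK7, CDK9, MCL1 and MYC. A few of the genes so chosen are left out of this text without replacement, but stay in the counts of their lists. The members and lists were chosen with earlier results of these data known. Members named outside this rule, given mostly without an error, were chosen after their values were seen and were not followed gene by gene through the alternatives.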

Additional observations from a re-analysis of the deposited data

Results flagged for a closer look

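For the genes below, the change from 3 h to 12 h with SY200/V50 differed from that with 1 agent alone, by the difference between the 2 changes tested in the edgeR fit (log2 scale, Benjamini-Hochberg adjusted p under 0.05, quasi-likelihood test). They were picked by size of the difference, so the sizes are at the upper end by choice. Against V50, lower differences were -4.03 for GEMIN4, -3.48 for HSPA1B, -3.18 for CCNF, -3.17 for CHD1, a chromatin remodeller, -3.15 for SH3RF1 and -3.14 for FAM83G. CHD1 had 143 and 76.3 CPM at 12 h of V50, against 33.7 and 26.1 CPM at 3 h of V50. FAM83G had 114 and 37.4 CPM at 12 h of V50, against 35.9 and 12.8 CPM at 3 h of V50.

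Higher differences against V50 were 7.17 for BTF3P10, a pseudogene whose reads may be shared with its parent, 2.29 for FGF5, a growth factor, 1.89 for APBB1, 1.87 for COL17A1, a collagen, 1.80 for IL31RA and 1.79 for MMP1, a collagenase. MMP1, FGF5 and IL31RA had nearly all of their reads in MDA-MD-231, so these values come from 1 line. MMP1 had 88.1 CPM at 12 h of V50 in that line, against 98.6 CPM at 3 h of V50.

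Against SY200, lower differences were -3.27 for GEMIN4, -3.20 for MGAT2, -3.16 for CSTF2T, -3.13 for FZR1, an activator of the anaphase-promoting complex, -3.06 for FAM111B and -3.05 for TNFRSF1A. FAM111B had 54.1 and 330 CPM at 12 h of SY200, against 26.8 and 121 CPM at 3 h of SY200. Higher differences were 4.25 for PYGM, 3.38 for FOS (adjusted p = 0.0489 in edgeR), 2.73 for LINC00641, 2.62 for PCF11, and 2.53 for both SLC38A4 and CCN3. SLC38A4 had its reads in MDA-MD-231.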

How the results depend on the processing

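Of the 151 genes named by rule and called between 12 h and 3 h of SY200/V50, 151 kept their call with DESeq2's size factors, 151 with DESeq2, 145 with the 6 SY200/V50 libraries alone, 139 with no filter, 128 with no composition factor, 83 under mitochondrial scaling and 4 without the cell line term. Leaving out 1 library kept 83 (MDA-MD-231, 3 h) to 147, and 68 were kept in all 6 such settings. The cause was not tested. Between 12 h and 3 h, 10596 genes were called under mitochondrial scaling, 33 with no replicate block (no cell line term), and 1020 to 3300 on leaving out 1 library. The 6 h against 3 h count was 33 with DESeq2's size factors, 2404 under mitochondrial scaling, 358 with DESeq2, 4 with no filter and 0 to 149 on leaving out 1 library. The 12 h against 6 h count was 1, 838, 396, 0 and 0 to 7 in the same order. The difference from V50 was called for 4922 genes under mitochondrial scaling, 1410 with no filter, 4126 with DESeq2 and 525 to 3816 on leaving out 1 library. The difference from SY200 was called for 7491, 1598, 4001 and 733 to 3857 in the same order. The line difference was called for 222 with DESeq2 and could not be fitted without a SY200/V50 library of 3 h or 12 h. Limiting genes of 1 exon to a mean of at least 10 CPM, an alternative chosen after seeing the data, moved the share called lower from 20% to 31.1%.

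Under mitochondrial scaling, medians turned negative for the lists of polymerase II subunits (-0.58), DNA replication (-1.16), ribosomal proteins (-0.47), mitochondrial messengers (-0.054), oxidative phosphorylation (-0.38), proteasome (-0.80), stress response (-0.90), heat shock (-0.89), NF-kB (-0.85), interferon-stimulated genes (-1.04), sterol synthesis (-0.94), snoRNA hosts (-0.58), glycolysis (-0.67), circadian repressors (-1.0), matrix (-0.69), lysosome (-0.44), histones (-0.17), MDA-MD-231 markers (-0.67), MDA-MD-468 markers (-1.01) and immune markers (-0.62). With no composition factor they did for DNA replication (-0.38), proteasome (-0.024), stress response (-0.073), heat shock (-0.11), NF-kB (-0.069), interferon-stimulated genes (-0.25), sterol synthesis (-0.11), circadian repressors (-0.11) and MDA-MD-468 markers (-0.17). DNA replication was also at -0.0075 with no filter, -0.031 with no replicate block and -0.11 in the 6 libraries alone, and MDA-MD-468 markers at -0.16 with no replicate block. On leaving out 1 library medians crossed 0 for DNA replication (-0.39 to 0.087), MDA-MD-468 markers (-0.17 to 0.34), NF-kB (-0.15 to 0.56), circadian repressors (-0.69 to 0.56), heat shock (-0.0076 to 0.27), interferon-stimulated genes (-0.078 to 0.18), pro-apoptotic genes (-0.36 to 0.080) and zinc finger genes (-0.77 to 0.087).

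Named genes that turned negative under mitochondrial scaling were HSP90AA1 (-0.64), HNRNPC (-0.57), BIRC5 (-0.55), FDPS (-0.54), PSMA7 (-0.49), WARS1 (-0.49), POLR2K (-0.48), PSMB4 (-0.47), ITGB5 (-0.47), PSMD2 (-0.47), EPCAM (-0.44), IL31RA (-0.41), CYCS (-0.39), PHGDH (-0.38), POLR2G (-0.37), SREBF2 (-0.37), HSP90B1 (-0.36), SNHG29 (-0.34), PKM (-0.33), POLR2E (-0.33), PGK1 (-0.32), TK1 (-0.32), ITGB1 (-0.30), HDAC1 (-0.28), GADD45A (-0.28), GAPDH (-0.28), CTSB (-0.28), LAMP1 (-0.24), SNHG32 (-0.23), RPL12 (-0.23), POLR2L (-0.22), RPS20 (-0.21), LINC00641 (-0.19), PSAP (-0.18), TIMP1 (-0.17), IFITM3 (-0.17), H2BC12 (-0.17), NDUFA4 (-0.16), NPC2 (-0.16), SNHG6 (-0.16), COX6C (-0.15), RPS12 (-0.14), COX7C (-0.13), S100A4 (-0.076), APBB1 (-0.069), SLC3A2 (-0.021) and MT-CO2 (-0.0080). Genes that crossed 0 on leaving out 1 library were CCNF (-1.67 to 0.11), CDK9 (-1.10 to 0.11), HSPA1B (-1.30 to 0.17), MCL1 (-1.90 to 0.57), FGF5 (-2.36 to 2.03), IL31RA (-0.92 to 1.60), LINC00641 (-0.37 to 1.74) and MMP1 (-2.03 to 3.59). With 1 library per line and time, these results rest on few libraries, and the part of depth was not tested.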
